A study of Mus musculus with 4 samples.

Results

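Naive B cells of the Peyer's patches (PP) were set against naive B cells of the peripheral lymph nodes (pLN), by 1 array for each, which are 2 of the 4 arrays of the series. The pair was taken by the labels alone, with all 45101 probe sets of the array. Every mouse was an adult of the C57BL6/J strain, wild type, housed without specific pathogens. The mice that gave lymph nodes had been immunized with TNP-KLH, a hapten on a carrier protein, in incomplete Freund's adjuvant, an oil emulsion, and those that gave Peyer's patches were untreated. Naive cells were sorted as B220+PNA-Fas-, and each RNA was pooled from 3 to 5 mice. The other 2 arrays, of B220+PNA+Fas+ germinal centre (GC) B cells of the same tissues and treatments, are used only to show the same contrast in other cells. Tissue and immunization changed together and cannot be told apart. With 1 array per group no difference has a replicate check and none was tested, so the text gives signals and counts of genes that differed by at least 2-fold.

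Peyer's patches are lymphoid follicles in the wall of the small intestine, covered by an epithelium that samples the gut contents, and they are the main site where B cells switch to IgA, the antibody class secreted into the gut. Peripheral lymph nodes drain skin and muscle. A naive B cell recirculates between such organs, carries IgM and IgD on its surface, and is small and at rest. Type I interferons, released when a virus or an adjuvant is sensed, switch on a set of antiviral genes in nearly every cell, and interferon gamma switches on an overlapping set.

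Signals were scaled so that each array had a 2% trimmed mean of 500, and differences are of log2(signal + 13.5), PP minus pLN. The median signal of a list of genes of unrelated tissues gave that offset, and the list's 90th percentile gave a level under which a signal was not told from background. The higher level of the 2 naive arrays, 131, was used for both. A fold against a gene under that level is a bound, written as at least the brighter signal over the level. A 2-fold call is made on the measured signals. Where raising dim signals to the level changes a list's naive count, the new count or a gene whose call is lost is given. For lists, counts in GC cells and counts by all probe sets are on measured signals only. Of 18194 genes, each by 1 probe set, 9254 passed the level on the brighter naive array. Of these, PP exceeded pLN by 2-fold or more in 892 genes (9.64%) and fell short of it by as much in 1419 (15.3%). With dim signals raised to the level the counts were 664 and 1205. In GC cells, 431 of 9756 genes were higher in PP (4.42%) and 163 lower (1.67%). The differences of naive cells had an SD of 0.93 across genes, against 0.57 in GC cells, and the naive arrays correlated with r = 0.90 across genes, which are not independent replicates.

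The cells carried B cell markers on both arrays. Cd79a, a signalling chain of the B cell receptor, read 25286 in PP and 15281 in pLN, and its partner Cd79b read 13813 and 16579. Ms4a1, which encodes CD20, read 6861 and 9996. Pax5, the factor that maintains B cell identity, read 358 and 512, and Cd22, a brake on the receptor, read 45733 and 23409. The sort marker Fas was dim on both naive arrays, at 403 in PP and 515 in pLN, against 4980 and 4266 on the GC arrays. Ptprc, the gene of the B220 antigen, read 3835 in PP and 3317 in pLN by its chosen probe set, but a second one was lower in PP by a log2 difference of -2.20.

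The naive arrays differed from each other in 3' bias, the excess of 3' over 5' signal, by the array's own controls. Labelling starts at the 3' end of a transcript, so a broken or poorly copied RNA loses signal at the 5' end. The 3' probe set of Gapdh was 96.4 times its 5' probe set in naive PP and 18.7 times in naive pLN, against 1.67 and 1.48 in the GC cells of the same tissues. Between the naive arrays the Gapdh difference went from -1.49 at the 5' probe set to 0.36 in the middle and 0.83 at the 3' end, and that of Actb from -0.97 to 1.09 and 1.48. In both transcripts the direction differed with the position of the probe set. In the 3870 genes that more than 1 probe set measured above the level, the highest and lowest probe set lay a median of 0.997 (log2) apart in naive cells, and 49.8% of the genes spanned 2-fold or more. In 4765 such genes of GC cells the median was 0.33 and 5.39% spanned 2-fold. In 171 genes one probe set was 2-fold higher and another 2-fold lower in naive PP, against 1 gene in GC cells.

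**Figure D1:**
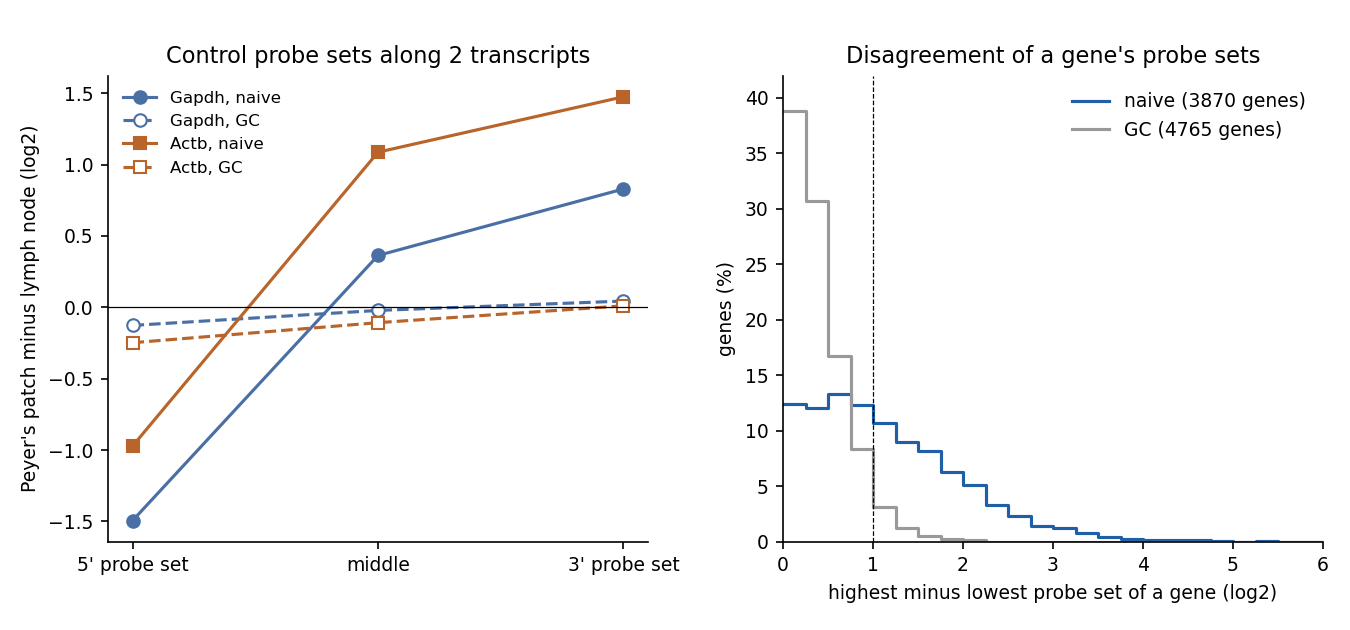
The left panel plots the PP minus pLN difference (log2) of the 5', middle and 3' control probe sets of Gapdh and Actb, naive cells as filled symbols and GC cells as open ones. The right panel plots the percentage of genes by the gap between their highest and lowest probe set (log2, bins of 0.25), with a dashed line at 2-fold. The naive lines climb from -1.49 and -0.97 to 0.83 and 1.48 while the GC lines stay between -0.25 and 0.04, and the median gap is 0.997 in naive and 0.33 in GC cells.

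A stricter count therefore asked that every probe set of a gene above the level differ by 2-fold in the same direction. Of the 3870 genes it could judge, 48 were higher in PP (1.24%) and 115 lower (2.97%). With dim signals raised to the level the counts were 30 and 66. By the chosen probe set alone, 354 of them were higher and 559 lower. Brightness moved with the direction too. The median difference was 0.53 in the brightest eighth of genes, with 251 higher and 21 lower, and between -0.36 and -0.28 in the second to the fifth eighth from the dim end. The share of 2-fold calls that were lower in PP was 61.4%, and it was 51.4% after quantile normalization, 56.4% after loess, 84.9% with the deposited median scaling and 98.2% with the arrays scaled to their spike-in controls. It was 49.1% with the level at the 75th percentile and 43.5% with no level, where higher calls were the more numerous. Those scalings put the median difference of all genes at 0.02, -0.03, -0.44 and -1.12, against -0.10 here. The spike-in controls, RNAs added to a sample before hybridisation, had a median signal of 19789 on naive PP and 9772 on naive pLN.

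Igha, which encodes the constant region of the IgA heavy chain, set naive cells of the 2 tissues apart by more than any other gene above the level. It read 21321 in naive PP and 41.2 in naive pLN, and 14683 and 279 in the GC cells of PP and pLN. The PP arrays of both cell types were bright, and naive pLN was under the level, so that naive PP was at least 162-fold above pLN. All 3 Igha probe sets were higher, between 4.69 and 8.61 (log2). The naive sort takes Fas- cells that do not bind PNA and did not select on IgA or IgM. A higher share of IgA-expressing cells and more Igha RNA per cell cannot be told apart in a bulk sample, here or in any result below.

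The genes of antibody secretion did not follow Igha. Of 22 such genes measured, 19 passed the level: Igha was the only one 2-fold higher in PP, 5 were 2-fold lower and 13 were neither, with a median of -0.42 and beside 15.3% of all genes lower. After quantile normalization, and likewise after loess, 3 were higher and 3 lower. Jchain, which joins IgA and IgM into polymers, read 827 in PP and 1707 in pLN. Mzb1, a chaperone of IgM assembly, read 85.4 and 1606, at least 12.2-fold lower in PP, by its single probe set. Pou2af1, a B cell coactivator, read 1070 and 4228, Ell2, an elongation factor of the secretory switch, 590 and 1241, and Ssr4, a subunit of the translocon complex, 1105 and 4999. A second probe set of Ssr4 stood at 0.47. Among plasma cell regulators, Xbp1 read 1316 and 2092, Irf4 5163 and 4565, and Prdm1 78.1 and 38.2, both under the level. Sdc1, the plasma cell surface marker CD138, read 480 and 904. In GC cells the same list had 4 genes higher in PP and 0 lower, and Mzb1, Pou2af1 and Ssr4 differed there by -0.15, 0.04 and 0.01.

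The other antibody genes depended on the probe set. Ighg3 read 17337 in PP and 4937 in pLN, with the probe sets above the level at 0.91 and 1.81. Its other probe sets were under the level on both naive arrays, at 1.01 and 7.3, and 19.7 and 11.4. Ighm, the IgM heavy chain, read 44610 and 14849 by its brightest probe set (1.59), but its 8 probe sets above the level ran from -5.70 to 1.59, and another read 25.1 and 1994. In GC cells that probe set read 7707 and 9183. The heavy chain genes are close relatives whose probes can share signal, so these values are uncertain.

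**Figure D2:**
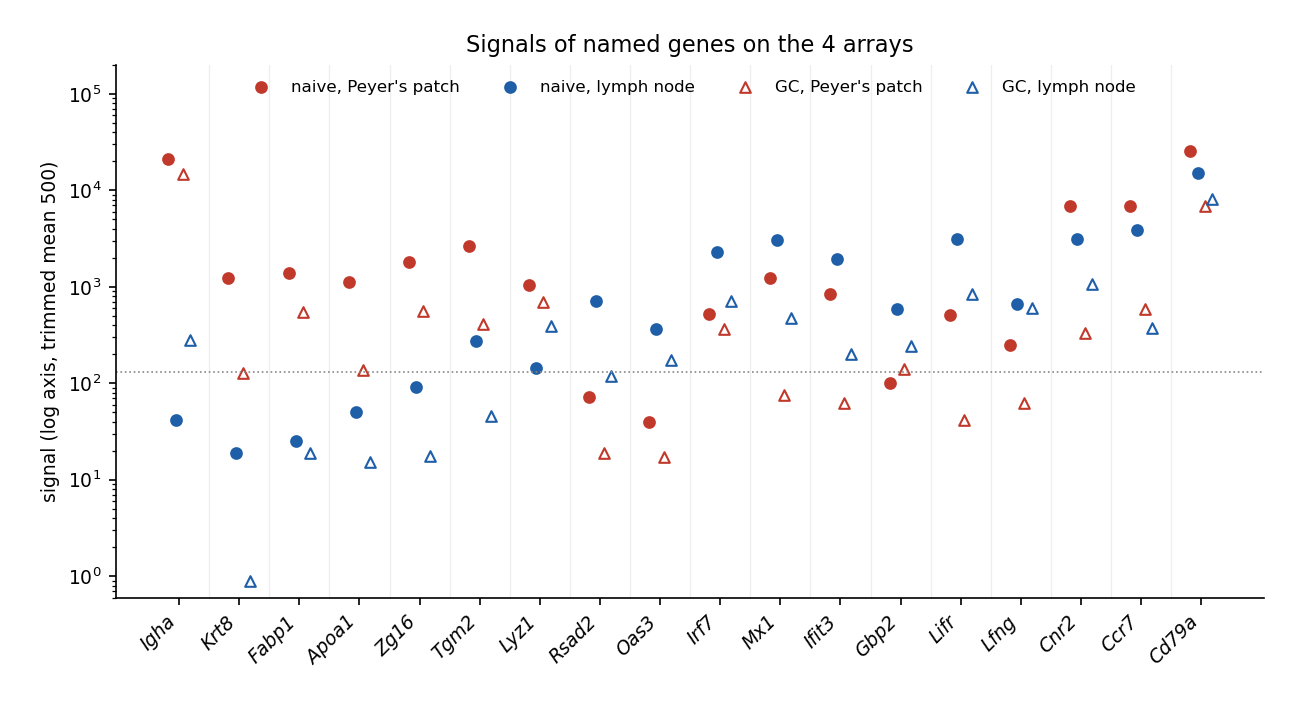
Signals of 18 named genes on the 4 arrays, on a log axis, with circles for naive and triangles for GC cells, red for PP and blue for pLN. The dotted line is the naive level of 131. Igha reads 21321 on naive PP and 41.2 on naive pLN, the epithelial genes Krt8 to Zg16 lie above the line on naive PP and under it on naive pLN, and Rsad2 to Ifit3 are lower on the PP array of both cell types.

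Transcripts of the gut epithelium were high on the naive PP array. Of 47 epithelial genes measured, 22 passed the level, 19 of those were 2-fold or more above pLN in PP and none was lower, with a median difference of 2.82 against -0.10 for all genes and beside 9.64% of all genes called higher. With dim signals raised to the level 11 of the 22 were higher and the median was 0.997, and with an offset of 100 the median was 1.59. All 22 were above the level in PP and 3 in pLN. Krt8, a keratin of simple epithelia, read 1241 in naive PP and 19.0 in naive pLN, and its 3 probe sets lay between 5.27 and 6.70. Fabp1, which carries fatty acids in enterocytes, read 1389 and 25.4, at least 10.6-fold, and Fabp2, its intestinal relative, 650 and 22.7. Apoa1, the main protein of high density lipoprotein, read 1129 and 49.8 and was higher by all 4 probe sets. Krt19, another keratin, read 927 and 50.3, and Lgals2, a galectin of the gut lining, 362 and 9.10.

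The genes are known from several kinds of epithelial cell, which bulk signals do not identify. Enterocyte genes included Apoa4 (491 in PP and 87.0 in pLN), the brush border peptidase Anpep (253 and 7.0) and Vil1, which bundles microvillus actin (169 and 18.2). Lyz1, the lysozyme of Paneth cells, read 1046 and 144, but 689 and 388 in GC cells of PP and pLN. Another Lyz1 probe set was under the level throughout, at 110 and 48.4 in naive and 26.9 and 14.9 in GC cells, so the Lyz1 reading depends on the probe set. In naive cells the antimicrobial lectins Reg3b and Reg3g read 301 and 40.0, and 186 and 13.5. Zg16, a goblet cell lectin outside the list, read 1806 and 90.4. The transcription factors Hnf4a and Cdx2, which specify intestinal epithelium, read 206 and 6.0, and 174 and 24.1. Epcam and Cdh1, adhesion genes of all epithelia, were under the level on both arrays at 60.5 and 64.8, and 92.0 and 64.9. Lgals4, a galectin of enterocytes, read 1058 and 1023.

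The epithelial genes were also higher in PP in GC cells. There, 15 of 18 genes above the GC level of 90.1 were 2-fold higher in PP and none lower, with a median of 2.53. Of 14 genes above the level in both cell types, 10 were 2-fold higher in both. These calls are on measured signals. In GC cells Krt8, Apoa1, Lgals2 and Prap1 were bounded at no less than 1.42, 1.53, 1.59 and 1.90-fold, so 2-fold was not shown for them. The GC bounds of Fabp1, Fabp2 and Reg3b were at least 6.03, 4.21 and 3.83-fold. Fabp1 read 543 in GC PP and 18.9 in GC pLN, Reg3b 345 and 7.73, and Krt8 128 and 0.90. The 47 signals summed to 13052 in naive PP, 2703 in naive pLN, 5933 in GC PP and 1619 in GC pLN. Of 9 epithelial genes read by more than 1 probe set, 8 were 2-fold higher by all of them on measured signals. Apoa4, Prap1 and Reg3b each had a probe set near the naive level of 131 in naive PP (137, 145 and 224), with pLN under the level. For these genes 2-fold by all probe sets was thus not shown. On the same arrays 14 of 118 genes of unrelated tissues passed the level, with 4 higher in PP, none lower and a median of 0.86, or 2 higher and 0.56 with dim signals raised to the level. The part of epithelial RNA in the other PP differences was not tested.

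Of the 48 genes that were 2-fold higher by all their probe sets, 8 belong to the epithelial list. The 15 highest held Igha, Zg16 and, from that list, Krt8, Fabp1, Apoa1, Lgals2, Lyz1, Reg3b, Apoa4 and Prap1. Tgm2, a transglutaminase, read 2638 in naive PP and 274 in naive pLN, with 4 probe sets between 2.18 and 3.20, and 411 and 46.0 in GC cells. Sox11, a transcription factor, read 272 and 19.2, with a second probe set at 225 and 3.7. Both of its pLN signals were under the level of 131, so 2-fold by all probe sets was not shown. Aars, the alanyl-tRNA synthetase, read 5395 and 1174 with probe sets at 1.35 and 2.19, Klhl17 19971 and 4730, and Nebl 859 and 202. In GC cells the differences of Aars, Klhl17 and Nebl were 0.24, 0.61 and 0.29. Ckmt1, a mitochondrial creatine kinase, was among the highest by a single probe set, at 637 and 4.2.

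**Figure D3:**
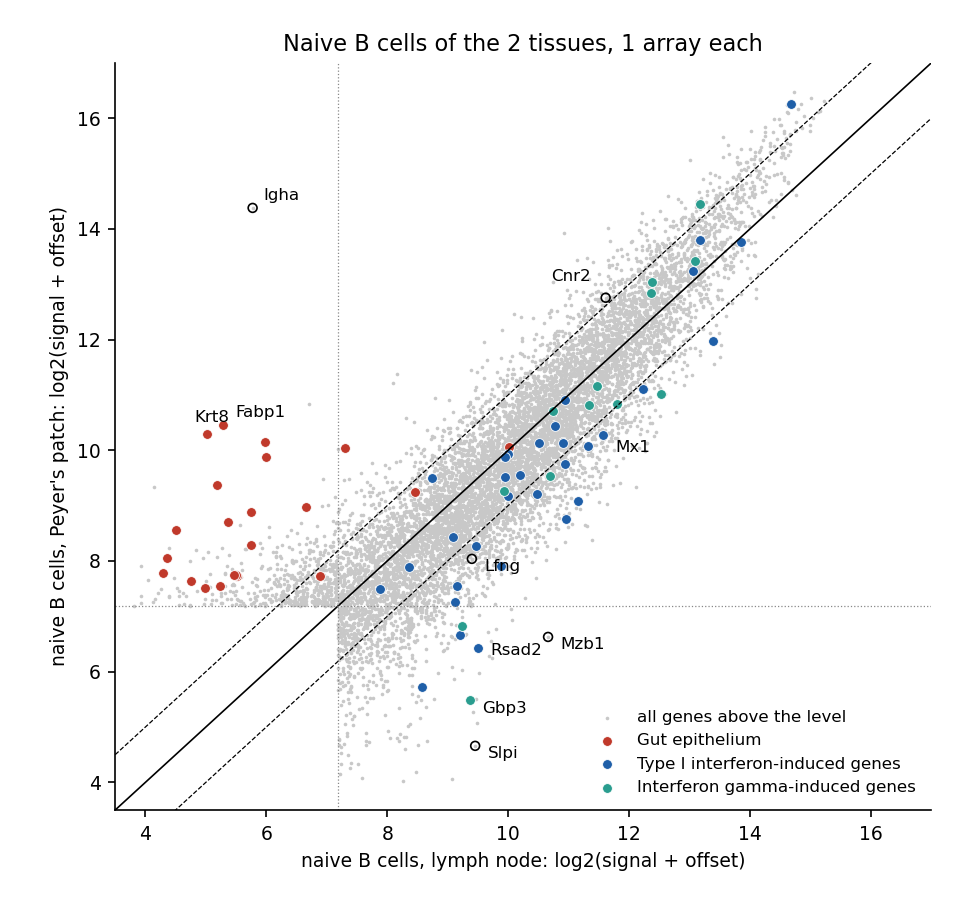
Log2(signal + offset) of naive B cells in pLN (x axis) and PP (y axis) for the 9254 genes above the level, with members of 3 gene lists in colour and 5 other genes as open circles. The solid line is equality, dashed lines mark 2-fold and dotted lines the level. The epithelial genes lie at the left above the diagonal, 22 of them over the level in PP and 3 in pLN, and 28 of 32 type I interferon genes lie under the solid line.

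Interferon-induced genes leaned the other way. Of 35 type I interferon-induced genes measured, 32 passed the level: 15 were at least 2-fold lower in PP, 1 was higher and 16 were neither. The background for a lower call was 15.3% of all genes. The list's median was -0.80, against -0.10 for all genes, and 28 of the 32 were below 0. Rsad2, which encodes the antiviral enzyme viperin, read 72.3 in naive PP and 712 in naive pLN, at least 5.42-fold lower (-3.08). A second probe set stood at -1.61, but it read 57.4 and 202 with PP under the level, so its bound was under 2-fold. Oas3, a sensor that makes oligoadenylates from viral RNA, read 39.5 and 369. Irf7, the factor that amplifies the interferon response, read 527 and 2272. Irf9, a subunit of the complex that type I interferon activates, read 577 and 1413. Mx1, an antiviral GTPase, read 1220 and 3027, Ifit3 848 and 1955, and Usp18, the enzyme that removes the ISG15 tag and dampens the receptor, 139 and 542.

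The GC arrays gave a like count. There 13 of 32 genes were 2-fold lower in PP and none higher, with a median of -0.75, beside 1.67% of all genes. By measured signals 10 genes were lower in both cell types: Mx1, Ifit2, Ifit3, Oas3, Oasl1, Oasl2, Rsad2, Usp18, Rtp4 and Xaf1. In GC PP, Oas3 and Rsad2 read 17.4 and 18.9, under the GC level of 90.1, beside 176 and 119 in GC pLN. For these genes 2-fold was thus not shown in GC cells (Oas3 at least 1.95-fold). On the GC arrays Mx1 read 74.7 in PP and 473 in pLN, Ifit3 61.8 and 200, and Usp18 101 and 382. The Gapdh ratios of those 2 arrays, 1.67 and 1.48, lay close to each other. Among naive cells the probe sets were less clear. Of 11 listed genes read by more than 1 probe set, 1 was 2-fold lower by all of them on measured signals. This was Rsad2, whose second probe set was bounded at under 2-fold. By all probe sets 6 genes were below 0, and Xaf1 and Rtp4 had a second probe set at 0.16 and 1.34. Ly6e, the single higher gene, read 78358 and 26228 with probe sets at -1.22 and 1.58.

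Other members of the response differed little. Bst2, the tetherin gene, read 1114 in PP and 1450 in pLN, Eif2ak2, the kinase PKR, 923 and 979, and Parp14 14248 and 9228. The list's median lay at -0.63 after loess, -0.65 after quantile normalization, -1.05 with the deposited scaling and -1.71 with the spike-in scaling, below the median of all genes each time. With the mean of a gene's probe sets 18 of 33 genes were lower and none higher.

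Interferon gamma-induced genes were fewer and more divided. Of 13 above the level, 4 were 2-fold lower and 1 higher, beside 15.3% and 9.64% of all genes, with a median of -0.52. Gbp2, a guanylate-binding protein that attacks pathogen vacuoles, read 99.6 in PP and 588 in pLN and was lower by both probe sets, and Gbp3 read 31.2 and 647 by its single one. Ifi47 and Irgm1, GTPases of the same defence, read 2071 and 5876, and 730 and 1645. Psmb8, an immunoproteasome subunit, was the higher one, at 22389 and 9231. In GC cells 0 of 13 were 2-fold lower and Gbp3 differed by -0.33. Gbp7, another relative, read 313 and 1956 in naive cells by its chosen probe set, with a second at -1.67, but 597 and 323 in GC cells.

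Some promoters of the type I list held a known element. The interferon-stimulated response element has the core GAAANNGAAA, where N is any base, and the transcription factor complex that type I interferon activates binds it. This core was searched on both strands, matches that overlap included, in RefSeq promoter windows of build GRCm38.p6, 250 bases before to 50 after the start. It was present in 3.44% of 32851 windows and 3.67% of 7570 genes above the level with a window. Of 22 type I genes above the level with a window, 10 held it (45.5%), 3 of the 11 that were 2-fold lower in PP and 7 of the 11 that were not. Of 11 interferon gamma genes with a window 5 held it, 3 of the 4 that were lower and 2 of the 7 that were not. The split between lower genes and the rest thus ran opposite ways in the 2 lists. A match describes the letters and is not a measured binding site. The 3 lower genes with a match are shown here by the 250 bases before their start, 5' to 3' on the gene's strand, with the letters of the core's fixed bases in capitals; TTTC is the core on the opposite strand.
Rsad2, chr12:26456453-26456702, minus strand: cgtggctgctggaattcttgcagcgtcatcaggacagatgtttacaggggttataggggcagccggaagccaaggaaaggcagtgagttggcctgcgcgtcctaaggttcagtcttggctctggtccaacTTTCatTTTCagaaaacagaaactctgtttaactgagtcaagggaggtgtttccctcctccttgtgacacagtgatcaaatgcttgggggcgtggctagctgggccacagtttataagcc
Oas3, chr5:120777660-120777909, minus strand: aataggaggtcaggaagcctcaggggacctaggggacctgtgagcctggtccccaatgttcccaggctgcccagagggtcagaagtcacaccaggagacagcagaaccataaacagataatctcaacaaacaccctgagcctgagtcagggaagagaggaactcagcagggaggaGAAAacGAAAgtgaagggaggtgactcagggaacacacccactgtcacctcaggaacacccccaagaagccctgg
Ifit3, chr19:34583279-34583528, plus strand: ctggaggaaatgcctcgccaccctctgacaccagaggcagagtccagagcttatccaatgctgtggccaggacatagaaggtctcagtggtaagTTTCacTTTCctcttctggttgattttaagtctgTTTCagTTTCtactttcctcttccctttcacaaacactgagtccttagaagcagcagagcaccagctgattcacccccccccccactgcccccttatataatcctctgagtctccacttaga
The core lies on the opposite strand in Rsad2 and Ifit3, which holds it at 2 places, and on the gene's strand in Oas3. Rsad2 and Oas3 were lower by -3.08 and -2.85 in naive PP, and Ifit3 by -1.19.

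Markers of other immune cells were dim and tended to be higher in pLN. Of 16 T cell markers 6 passed the level, 3 were called lower in PP, beside 15.3% of all genes, and none higher (median -1.04). All 3 were under the level in PP, and with dim signals raised to it none was 2-fold lower and the median was -0.35. Cd4 read 6.77 in PP and 155 in pLN, Il7r 37.4 and 244, and Thy1 57.7 and 202. Cd3d, Cd3e and Cd3g, the defining T cell receptor chains, were under the level on both arrays, with Cd3e the brightest at 74.1 in PP and 95.8 in pLN. The list's sums were 15709 and 11538, most of it from Cd2, which B cells of the mouse also express (14643 and 9697). Of 11 dendritic cell markers 6 passed and 3 were called lower, beside 15.3% of all genes. None of the 3 was lower by 2-fold with dim signals raised to the level. Among them were Siglech, a receptor of plasmacytoid dendritic cells, at 23.7 and 235, and Ccr9, at 48.1 and 224. The summed signals of the 11 markers were 5229 and 7748. The plasmacytoid type is a known source of type I interferon. Siglech read lower in PP together with the interferon genes in naive cells, by at least 1.79-fold, and its part in that result was not tested. In GC cells Siglech read 57.0 and 48.8, both under the level, so no difference could be read there. Mx1 and Rsad2 also read lower in PP in GC cells, Rsad2 without 2-fold being shown, and a relation to Siglech was not tested.

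Macrophage and stromal markers were mixed. Of 15 macrophage markers 7 passed, with 3 lower in PP and 1 higher (sums 4401 and 6769), beside 15.3% and 9.64% of all genes. With dim signals raised to the level 2 were lower and 0 higher. Mpeg1, a pore-forming protein, read 356 and 1302, Cd68 89.0 and 259, and Csf1r 155 and 47.9. Of 16 stromal and follicular dendritic cell markers 3 passed and 2 were higher, beside 9.64% of all genes. With dim signals raised to the level 1 was higher. Clu, a secreted chaperone made by follicular dendritic cells, read 812 and 248 with all 4 probe sets between 1.66 and 1.86, and Pdgfrb, a receptor of stromal cells, read 197 and 34.2. Of 13 granulocyte markers none passed. Single markers passed for NK cells (Klrd1, 80.6 and 287) and for erythroid cells and platelets (Car2, 99.6 and 329).

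The Notch pathway, which directs B cells to the marginal zone fate, had about as many calls as all genes. Of 17 genes above the level 2 were 2-fold higher and 3 lower in PP, beside 9.64% and 15.3% of all genes, with a median of -0.21 that came to 0.05 after quantile normalization. Lfng, the fringe enzyme that modifies Notch receptors with sugar, read 249 in naive PP and 662 in naive pLN by its single probe set above the level, and 62.5 and 607 in GC cells. Mib1, a ligase that activates Notch ligands, read 58.9 and 283, but 675 and 473 in GC cells. Dtx1 and Dtx2, Deltex ligases induced by Notch, were the higher genes, at 3925 and 1727, and 5503 and 2540, while Notch2 read 16166 and 11472. Among marginal zone genes 2 of 12 were higher and 4 lower, beside the same shares. Cr2, the complement receptor CD21, read 8926 and 12099, and Cd1d1, which presents lipids, 1122 and 1186. Cnr2, the cannabinoid receptor of B cells, read 6913 and 3122 in naive cells and 328 and 1070 in GC cells, higher in PP in the first and lower in the second.

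Homing receptors decide which organ a B cell enters. Of 24 above the level 3 were 2-fold higher in PP, beside 9.64% of all genes, and 6 lower, beside 15.3%. With dim signals raised to the level 4 were lower. The gut homing integrin is made of Itga4 and Itgb7, which read 28206 and 16935, and 12814 and 6620, both under 2-fold. Ccr9, the receptor for the small intestine chemokine CCL25, was lower in PP, at 48.1 and 224, with PP under the level. The higher genes were Gpr183, an oxysterol receptor that positions B cells (7367 and 3129, with a second probe set at -0.27), Icam1 (11334 and 5178) and Cnr2. The lower ones included Cxcr3, an inflammatory chemokine receptor, at 5.57 and 153 (at least 1.17-fold), Ccr6, which draws B cells under the Peyer's patch epithelium, at 757 and 1823, and S1pr4 at 727 and 1894. S1pr4 was lower in GC cells as well, at 330 and 1587. Cxcr5 and Ccr7, which place cells in the follicle and the T cell zone, read 17574 and 9853, and 6848 and 3840.

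Genes of TGF-beta, retinoid and IgA switching showed little. Of 17 above the level, 1 was higher and 1 lower, fewer than the 9.64% and 15.3% of all genes. Cd40, whose signal drives T cell help, read 18770 and 7500 with all 3 probe sets between 0.64 and 1.56, and Tgfbr1, a chain of the TGF-beta receptor, 39.0 and 155. That lower call, a bound of at least 1.18-fold, was lost with dim signals raised to the level, with an offset of 100 and with the level at the 95th percentile. Tgfbr2 read 15875 and 10195, Smad3 3639 and 3347 and Runx3, a factor that acts on the Igha promoter, 1103 and 834.

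Memory B cell genes had 1 of 9 higher and 2 lower, near the 9.64% and 15.3% of all genes. Lifr, the receptor for leukaemia inhibitory factor, read 511 in naive PP and 3160 in naive pLN, with probe sets at -2.60 and -2.00, and 41.4 and 833 in GC cells, so it was lower in PP in both. Nt5e, the ecto-enzyme CD73, went the other way in both, at 309 and 45.9 in naive and 1684 and 536 in GC cells. Cd80 was under the level on both naive arrays, at 118 and 10.9.

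Immediate early genes, which respond within minutes to receptor signals or cell handling, had 4 of 25 higher and 9 lower in PP, beside 9.64% and 15.3% of all genes. Nfkbiz, a regulator of NF-kB targets, read 319 and 2670 by the chosen probe set, with others up to -0.09. Jun read 192 and 565 in naive cells but 479 and 157 in GC cells, and Dusp1 99.6 and 274, then 1850 and 746. The naive call of Dusp1 was lost with dim signals raised to the level. Egr1 was higher in naive PP, at 7853 and 3265, and Rgs2 at 10521 and 3572, although its lowest probe set stood at -0.34. Of 8 heat shock genes 4 were lower and 1 higher, beside the same shares. Hspa1b, among the lower ones, read 43.3 and 235, a bound of at least 1.79-fold. Its call was lost with dim signals raised to the level. Hspd1, the mitochondrial chaperonin, read 1132 and 3367 and Dnajb1 1258 and 3222, while Hspa8 read 91393 and 27148 with probe sets from -1.37 to 1.75.

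Cytokine receptors and their signal carriers had 3 of 26 genes higher and 3 lower, near or under the 9.64% and 15.3% of all genes. With dim signals raised to the level 1 was lower. Ifngr2, a chain of the interferon gamma receptor, read 839 in PP and 236 in pLN with both probe sets above 1, whereas Ifngr1, the other chain, read 19.1 and 160 by its single probe set. In GC cells the chains read 568 and 773, and 526 and 592, with pLN the higher in each. Socs3, a feedback inhibitor of cytokine signals, read 6742 and 3182 with probe sets up to 1.58, and Jak3, a kinase of the common gamma chain receptors, 157 and 748. Il4ra, the interleukin 4 receptor chain, read 8943 and 8980, with a second probe set at -1.99, and Stat6, which it activates, 12563 and 8947.

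Genes of the naive and follicular state lay close to the median of all genes. Of 18, 2 were higher and 3 lower, beside 9.64% and 15.3% of all genes, with a median of -0.10. Fcer2a, the low affinity IgE receptor CD23, read 7877 and 9608, and Klf2, a factor that controls B cell trafficking, 2929 and 2322. Cd72, an inhibitory receptor, read 38854 and 18420, and Bach2, a repressor of plasma cell genes, 3305 and 7285 with 3 probe sets between -1.29 and -0.74. Of 8 B-1 cell genes none was higher and 2 were lower, beside the same shares. With dim signals raised to the level 1 was lower. Cd5, the marker of B-1a cells, read 103 and 141, and Spn, the gene of CD43, 634 and 526. Of 10 genes of the germinal centre programme 1 was higher and 1 lower, beside the same shares. The higher one was Mef2b at 652 and 197, and the lower one the uracil glycosylase Ung at 379 and 890. Bcl6, the factor that defines GC cells, read 2990 and 5987 in naive and 7604 and 7082 in GC cells.

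None of 18 quiescence factors was 2-fold higher and 6 were lower, beside 15.3% of all genes. The lower ones numbered 3 with dim signals raised to the level or with the level at the 95th percentile. Foxp1, which keeps B cells at rest, read 935 and 2392, with 7 probe sets from -1.89 to 0.21. Among 18 activation genes 3 were higher and 4 lower, beside 9.64% and 15.3% of all genes. Traf1 (7471 and 2397) and Batf (132 and 327) lay on opposite sides. Among 12 mitosis genes 2 were higher and 4 lower, beside the same shares, or none and 2 with dim signals raised to the level. The mitosis genes were dim beside GC cells: Birc5, a mitotic survivin, read 62.9 and 327 in naive against 7094 and 6851 in GC cells. None of the 15 Toll-like receptor genes and none of the 15 apoptosis regulators differed by 2-fold. One of 12 MHC class II genes did, H2-Ob, at 3018 and 10799.

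Genes of bulk metabolism and translation were mostly bright, and their medians changed with the scaling. Their counts stand beside 9.64% of all genes higher and 15.3% lower. The median of all genes was itself -1.12 with the spike-in scaling and 0.02 after quantile normalization. Each list median given below for the spike-in scaling lay above that -1.12. In the brightest eighth of all genes, 251 of 1157 were higher and 21 lower. Of 17 cytosolic ribosomal protein genes 6 were higher and 1 lower, with a median of 0.78 that turned to -0.06 after quantile normalization and -0.24 with the spike-in scaling. Rps3 read 77449 and 25069 with a second probe set at -1.12, and Rps14 was lower by both probe sets, at 520 and 2882. Of 14 glycolysis genes 2 were higher and 1 lower (median 0.66, or -0.35 with the spike-in scaling), Aldoa at 37619 and 14688 with probe sets from -0.31 to 1.36. Of 16 cholesterol synthesis genes 4 were higher and none lower (median 0.34, -0.67 with the spike-in scaling). Lss, which closes the sterol ring, read 1942 and 816 with all 3 probe sets between 1.07 and 1.25. Of 22 B cell receptor genes 4 were higher and 3 lower, a median of 0.37 that was -0.01 after loess and -0.64 with the spike-in scaling. Ptpn6, the phosphatase SHP-1, read 44329 and 18387 with both probe sets above 1, and Syk 39305 and 18373 with probe sets from -1.12 to 1.10. In GC cells no gene of these 4 lists differed by 2-fold.

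**Figure D4:**
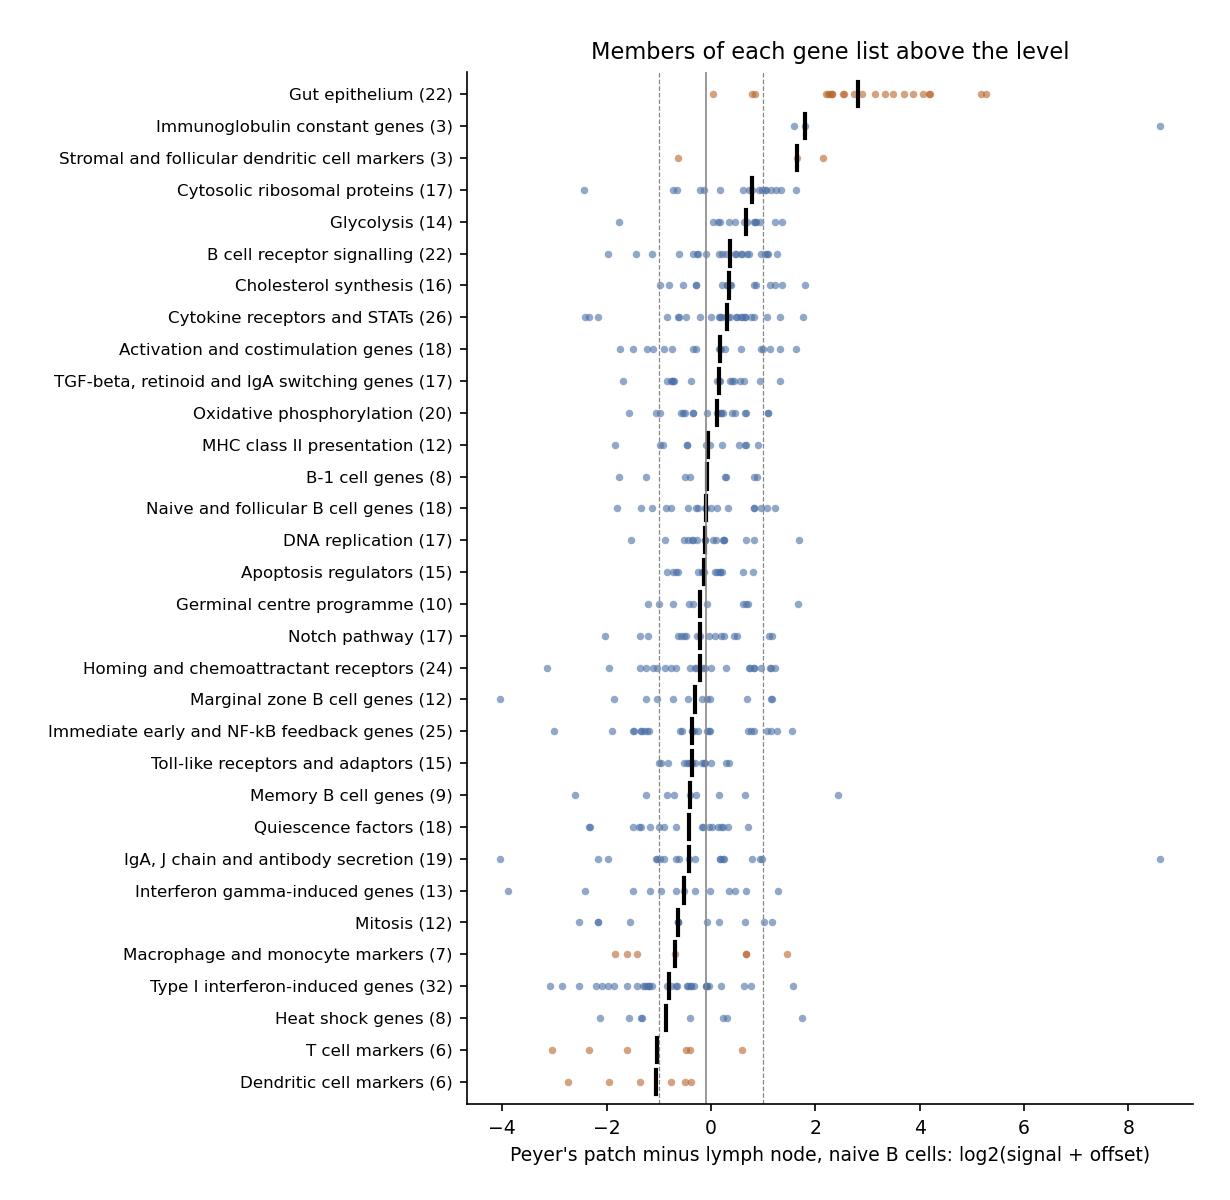
Each point is 1 gene above the level, placed by its naive PP minus pLN difference (log2), for the lists with 3 or more such genes (numbers in brackets); blue lists are B cell pathways and brown ones markers of other cell types. Black bars are list medians, dashed lines 2-fold and the grey line the median of all genes, -0.10. The epithelial list has the highest median, 2.82, and the type I interferon list lies at -0.80; the ribosomal median of 0.78 turned to -0.06 after quantile normalization, and with the spike-in scaling the median of all genes was -1.12.

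By all probe sets 115 genes were lower in PP. After Rsad2, the 15 lowest held Lifr, Gbp7, Gbp2, Rps14, Tmed7 (54.3 and 524), Rab1a, a GTPase of early secretory traffic (246 and 1576), Hmgn3, a nucleosome-binding protein (137 and 863), Brk1, a subunit of the actin-regulating WAVE complex (631 and 2915), and E2f2, a cell cycle factor (423 and 2048). In GC cells the differences of these last 5 lay between -0.35 and 0.19. Among genes by their chosen probe set the lowest were D13Ertd608e (3.23 and 522) and Slpi, a protease inhibitor of mucosa and myeloid cells (11.8 and 688). Slpi was lower in GC PP as well, at 828 against 4973. Gpr65, an acid-sensing receptor, read 20.3 and 701, and Casp2 4.81 and 344, but 1211 and 1499 in GC cells.

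Set beside the GC arrays over the 8661 genes above the level in both cell types, 57 genes were 2-fold higher in PP in both, 8.51% of the 670 naive and 27.9% of the 204 GC ones. In both, 45 genes were lower, 3.32% of the 1355 naive and 34.9% of the 129 GC ones. Another 4 were higher in naive and lower in GC cells, and 33 the reverse. The labels do not say whether naive and GC cells of a tissue came from the same mice. Igha, 10 epithelial genes, Tgm2 and Nt5e were among the shared higher genes, and Lifr, Lfng, Slpi and the 10 interferon genes among the shared lower ones. These shared calls are on measured signals, and for some of the genes the dimmer signal lay under the level.

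**Figure D5:**
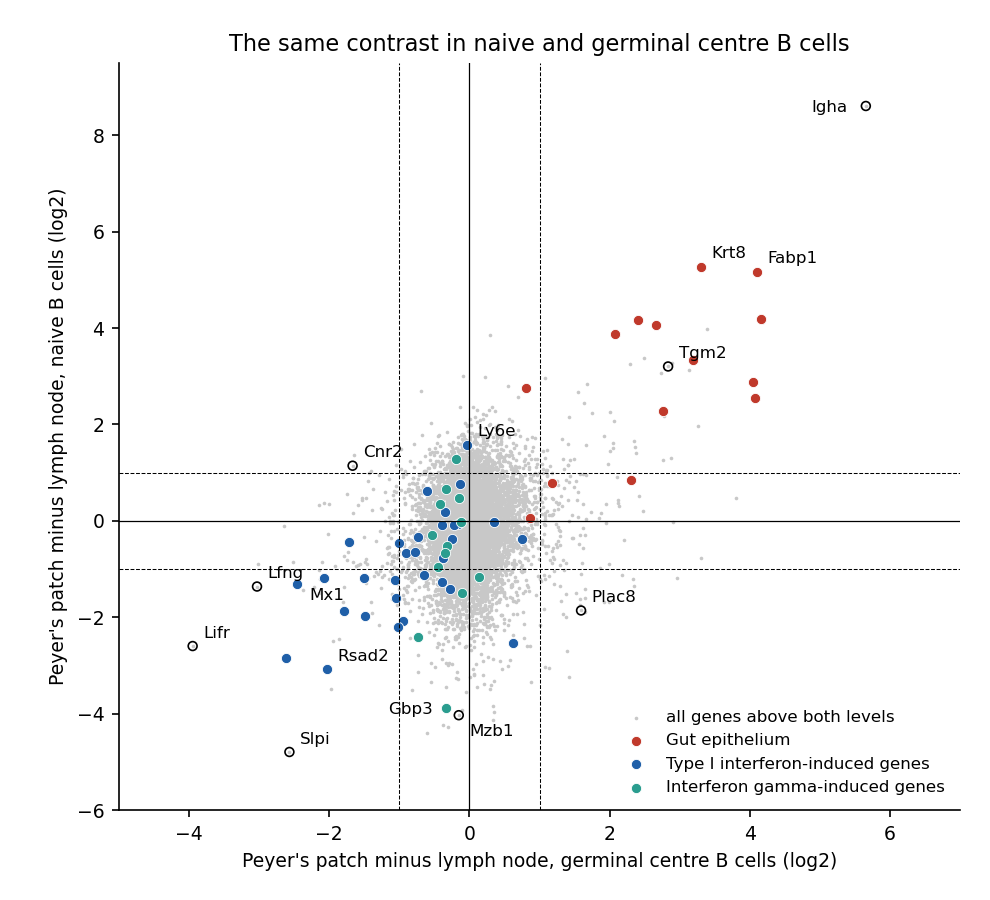
The PP minus pLN difference (log2) in GC cells (x axis) against that in naive cells (y axis) for the 8661 genes above the level in both, with 3 lists in colour and 8 other genes as open circles; dashed lines mark 2-fold. The cloud is taller than wide, as the SDs of 0.93 and 0.57 give. Epithelial genes and Igha lie at the upper right, where 57 genes are 2-fold higher in both, and 10 type I interferon genes lie at the lower left among 45.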

How the data were processed

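RNA of sorted B cells was labelled as biotinylated cRNA and hybridised to 4 single-colour Affymetrix arrays of 45101 probe sets, 1 per group. The deposited intensities are linear and have a median of 1 on each array. The submitters' processing notes name GCOS without a version, with settings not given in the sources used here. Each array was rescaled to a 2% trimmed mean of 500 (factors 63.3 and 50.0 for naive PP and pLN), and differences were taken as log2(signal + 13.5).

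The platform annotation gave 1 symbol to 34958 probe sets, several to 932 (not named) and did not list 9211. A gene was read by its probe set of highest mean log2 value over the 4 arrays, among 18194 genes. It was counted where the brighter array passed the 90th percentile of 118 genes of unrelated tissues, and called at a 2-fold difference. By the level used for both, 8612 genes were measured on naive PP and 8729 on naive pLN. The number of arrays, not a read depth, limits the precision, and no test was made. The counting code was checked on known changes put into a scaled copy of the naive pLN array, without noise or unequal 3' bias. That check covers the code and not the calls on the real pair. Genes named were the 15 highest and lowest by all probe sets, the 10 highest and lowest of all, up to 4 members of each list with the largest differences, the proposed markers, Fas and Ptprc, and the 6 genes either way that departed most from the GC cells. Other list members and Ighm's second probe set were added after their values were seen. The members and lists were chosen with earlier results of these data known. The 35 gene lists hold 671 genes, of which 605 were measured. Promoter windows came from RefSeq. Alternatives were other scalings, offsets, levels, probe set rules and fold thresholds. Python 3.11.15, pandas 2.3.3, numpy 2.4.6, scipy 1.17.1 and matplotlib 3.10.9 were used.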

Additional observations from a re-analysis of the deposited data

Results flagged for a closer look

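In 8 named genes the naive and the GC cells differed by 2-fold or more in opposite directions between the tissues. In 5 of the 8 (Cnr2, Plcb2, Jun, Plac8 and Mpeg1) both differences were over 2-fold between signals above the level. Some genes were named because their differences in the 2 cell types departed most, so the naming favoured such genes. Over the 8661 genes above the level in both cell types, 4 were higher in naive and lower in GC cells, and 33 the reverse. Each cell type had 1 array per tissue, so the difference between them was not tested. Cnr2, the cannabinoid receptor, was higher in PP in naive cells (6913 and 3122) and lower in GC cells (328 and 1070), a gap of 2.81 on the log2 scale, naive minus GC. Plcb2, a phospholipase, did the same (1342 and 513, then 177 and 586), with a gap of 3.02. The other 6 were lower in PP in naive cells and higher in GC cells. Jun had a gap of -3.02 and Plac8 (388 and 1444 in naive, 3754 and 1236 in GC cells) one of -3.45. Mpeg1, a macrophage gene, had a gap of -2.90. For Ccl22, Klhl9 and Slc9a9 the gaps of -3.69, -4.20 and -4.66 rest on signals under the level (50.3, 4.30 and 14.4 on naive PP). Their naive differences are bounded at no less than 1.14, 1.03 and 1.90-fold, and that of Slc9a9 in GC cells at 1.13-fold, so 2-fold was not shown for them in each cell type.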

How the results depend on the processing

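No replicate could be left out, since each group is 1 array. No paired analysis was possible because each group holds a single sample and the groups share only the replicate number 1. The 892 higher and 1419 lower genes became 444 and 2498 with the deposited scaling, 97 and 5361 with the spike-in scaling, 1421 and 2641 when every probe set was counted, 2870 and 2206 with no level, 1971 and 2647 at 1.5-fold and 256 and 461 at 3-fold; 1699 were higher and 1640 lower with the level at the 75th percentile. The 48 higher by all probe sets became 21 (deposited), 9 (spike-ins), 29 (offset 100), 91 (75th percentile), 152 (no level), 30 (dim signals at the level), 23 (without s_at and x_at probe sets), 142 (1.5-fold) and 14 (3-fold). The 115 lower became 323 (deposited), 56 (quantile), 71 (loess), 1297 (spike-ins), 44 (offset 100), 66 (dim signals at the level), 360 (1.5-fold) and 20 (3-fold). In GC cells the 431 higher became 226 (offset 100), 801 (75th percentile), 238 (95th percentile), 979 (no level), 287 (dim signals at the level), 736 (every probe set), 1005 (1.5-fold) and 192 (3-fold), and the 163 lower became 334 (deposited), 93 (offset 100), 287 (no level), 268 (every probe set), 543 (1.5-fold) and 56 (3-fold).

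Relative to all genes, the ribosomal median turned to -0.0792 (quantile) and the macrophage median to 0.53 (no level). Without s_at and x_at probe sets Rfc4 turned to -0.58, Rgs2 to -0.34, Rrm2 to 0.48 and Ssr4 to 0.47. Ighm turned to -2.83 by the mean of its probe sets, and Slamf1 to 0.0409 by that mean and to 0.74 when the brightest naive probe set was taken. The causes were not tested. The signal over background limits every gene under the level of 131 on one array, whose fold is a bound.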
